A study of Mus musculus with 12 samples.

Results

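The genes described here encode 7 enzymes of cholesterol synthesis, namely *Hmgcs1*, *Idi1*, *Fdps*, *Fdft1*, *Sqle*, *Lss* and *Cyp51*, together with *Srebf2*, their transcriptional regulator. They were taken by gene symbol from the joint table of estimated counts and make up 8 of its 19308 genes. The rule names symbols and no measured value, but the list was chosen with earlier results of these data known. All 8 passed the filter on low counts and were among the 14094 genes tested. The working name of the set also spoke of uptake, but none of the 8 is a receptor or carrier that brings cholesterol into the cell, so they are called cholesterol synthesis genes here, and uptake genes are given below as a separate list.

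Cells build cholesterol from acetyl-CoA by way of mevalonate and the isoprenoid diphosphates, then commit carbon to sterols at squalene, close the ring system at lanosterol and trim it to cholesterol. SREBP-2, the protein made from *Srebf2*, is held in the endoplasmic reticulum while sterols are plentiful and is carried to the Golgi, cut and released to the nucleus when they fall, where it switches on nearly every enzyme of the route. Because one factor drives the pathway, its mRNAs are often read together as a gauge of sterol demand. The heart takes most of its energy from fatty acids, and cholesterol in it serves chiefly as a part of membranes.

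RNA was sequenced from whole hearts of C57BL/6 mice, 3 hearts in each of 4 groups and 12 in all. WT mice and mice lacking fatty acid binding protein 3 (F3-KO, a whole-body *Fabp3* deletion made with CRISPR-Cas9) were operated at 8 weeks of age. They received either transverse aortic constriction (TAC), in which the aortic arch is tied down against a needle so that the left ventricle works against a raised load, or a sham operation, and hearts were taken 1 week later. The groups are therefore WT sham, F3-KO sham, WT TAC and F3-KO TAC, and the design asks whether loss of *Fabp3* changes the heart before and after pressure overload.

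The libraries held 10424334 to 14372011 estimated counts. *Fabp3* was still counted in every F3-KO heart, at 1040 to 1090 CPM (counts scaled to library size, here with TMM factors) after sham and 1000 to 1140 CPM after TAC, against 2120 to 2850 and 2890 to 3060 CPM in WT hearts, so all F3-KO hearts lay below all WT hearts. The 8 cardiomyocyte markers summed to 62100 to 80900 CPM in WT sham, 64700 to 94300 in WT TAC, 79600 to 88900 in F3-KO sham and 54700 to 68000 in F3-KO TAC hearts, so the sums of F3-KO TAC hearts lay below those of F3-KO sham hearts. *Myh6*, the marker with the highest level, was at 31900 to 33900 CPM in F3-KO sham and 15300 to 23000 in F3-KO TAC hearts. *Tnni3*, *Pln* and *Myl2* were also lower in all F3-KO TAC hearts, while *Tnnt2*, *Actc1*, *Ryr2* and *Tnnc1* overlapped. *Acta1* and *Nppb*, genes of the hypertrophic response, were higher in every TAC heart than in any sham heart of the same genotype, with *Acta1* at 46.8 to 154 and 743 to 3280 CPM in WT sham and TAC hearts and at 188 to 755 and 2940 to 3890 CPM in F3-KO sham and TAC hearts. The other 2 hypertrophy genes listed, *Nppa* and *Myh7*, overlapped between sham and TAC. In F3-KO TAC heart 1 *Nppa* was at 166 CPM, against 145 to 333 in F3-KO sham hearts, and *Myh7* at 189 CPM, below all F3-KO sham hearts (276 to 637). In WT sham heart 2 *Myh7* was at 9560 CPM, against 1250 in WT TAC heart 2. Marker values are CPM of the library total. Some TAC libraries stood apart. The fibroblast markers summed to 3830 and 6470 CPM in F3-KO TAC hearts 1 and 2 but to 1500 in heart 3, and to 3020 in WT TAC heart 1 but to 1450 and 1350 in hearts 2 and 3, where WT sham hearts held 718 to 1600 and F3-KO sham hearts 1000 to 1370. In F3-KO TAC hearts 1, 2 and 3 *Col1a1* was at 712, 1670 and 99 CPM. *Col1a2*, *Col3a1*, *Lum* and *Tcf21* were also lowest in heart 3. *Pdgfra* (55.5, 63.3 and 62.7 CPM) and *Dcn* (793, 1180 and 988 CPM) were instead lowest in heart 1. F3-KO TAC hearts 2 and 3 also carried 78.2 and 118 CPM of the 5 hepatocyte markers, with *Alb* at 58.9 and 86.4, while the sum reached at most 1.53 in the other 10 hearts. Fewer cells of a type, less RNA per cell and a change in single marker genes cannot be told apart in whole-heart RNA.

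The promoters of 5 of the 8 genes (*Hmgcs1*, *Idi1*, *Lss*, *Cyp51* and *Srebf2*) were matched in RefSeq on GRCm38.p6. *Fdps*, *Fdft1* and *Sqle* were not matched. The 250 bases before the start site are shown for the enzyme at the head of the set and for the regulator. These were the promoters that held TCACCCCA, a core spelling of the sterol regulatory element. They lie at chr13:119690101-119690350 and chr15:82147019-82147268, both on the plus strand. Capitals mark that core, or the longer TCACNCCAC that overlaps it, and CCAAT, the box bound by the SREBP partner NF-Y, which reads ATTGG on the other strand.
Hmgcs1: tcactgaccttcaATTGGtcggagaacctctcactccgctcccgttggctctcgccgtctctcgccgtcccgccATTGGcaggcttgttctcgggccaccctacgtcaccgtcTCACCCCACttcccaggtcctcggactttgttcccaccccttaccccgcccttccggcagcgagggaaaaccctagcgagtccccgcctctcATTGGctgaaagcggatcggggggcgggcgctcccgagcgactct
Srebf2: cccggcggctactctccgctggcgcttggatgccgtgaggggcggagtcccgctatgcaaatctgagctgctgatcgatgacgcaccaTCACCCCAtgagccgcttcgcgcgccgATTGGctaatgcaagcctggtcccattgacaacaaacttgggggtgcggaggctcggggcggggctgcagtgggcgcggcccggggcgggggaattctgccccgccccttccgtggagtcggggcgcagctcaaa
TCACNCCAC, searched on both strands like all motifs here, was present in 1 of the 5 promoters and in 1.05% of 32851 mouse promoters of this length. TCACCCCA, which was searched after these sequences had been seen, was present in 2 of 5 and in 1.34%. CCAAT was present in 5 of 5 against 33.8%, the GC box GGGCGG in 5 of 5 against 32.7%, and the E-box CACGTG in 0 of 5 against 6.02%. In *Hmgcs1* the core began 137 bases before the start site and the nearest CCAAT match 45 bases before it. A match of letters is a description of the window and was not tested as a binding site. Other spellings of the sterol regulatory element were not searched, so a promoter without these matches may still hold one.

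Levels per kilobase of transcript differed widely among the 8 genes. *Fdft1*, squalene synthase, which takes farnesyl diphosphate into the sterol branch, averaged 15.8 CPM per kilobase over the 12 hearts. *Hmgcs1*, the cytosolic HMG-CoA synthase of the early mevalonate route, averaged 12.4 CPM per kilobase, and *Fdps*, which makes farnesyl diphosphate, 11.5. The ranges over hearts of these genes overlapped, at 8.78 to 22.5, 10 to 15.3 and 10.1 to 13.4 CPM per kilobase, so their order is not beyond the spread. *Srebf2* followed at 7.09 (5.51 to 10.6), its highest heart reaching into the ranges of all 3, and *Cyp51*, lanosterol demethylase, at 3.93 (2.17 to 5.29). *Lss*, the cyclase that makes lanosterol, stood at 1.08 (0.911 to 1.61), *Sqle*, the squalene epoxidase that is a control point of the sterol branch, at 0.787 (0.467 to 1.29), and *Idi1*, which interconverts the isoprenoid units, at 0.614 (0 to 1.31). The last 3 overlapped one another and lay below the lowest heart of every other gene. The steps on either side of squalene thus stood at opposite ends of the set, with *Fdft1* high and *Sqle* and *Lss* low. Lengths are medians over annotated coding transcripts and no isoform was measured, so these levels are approximate.

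**Figure D1:**
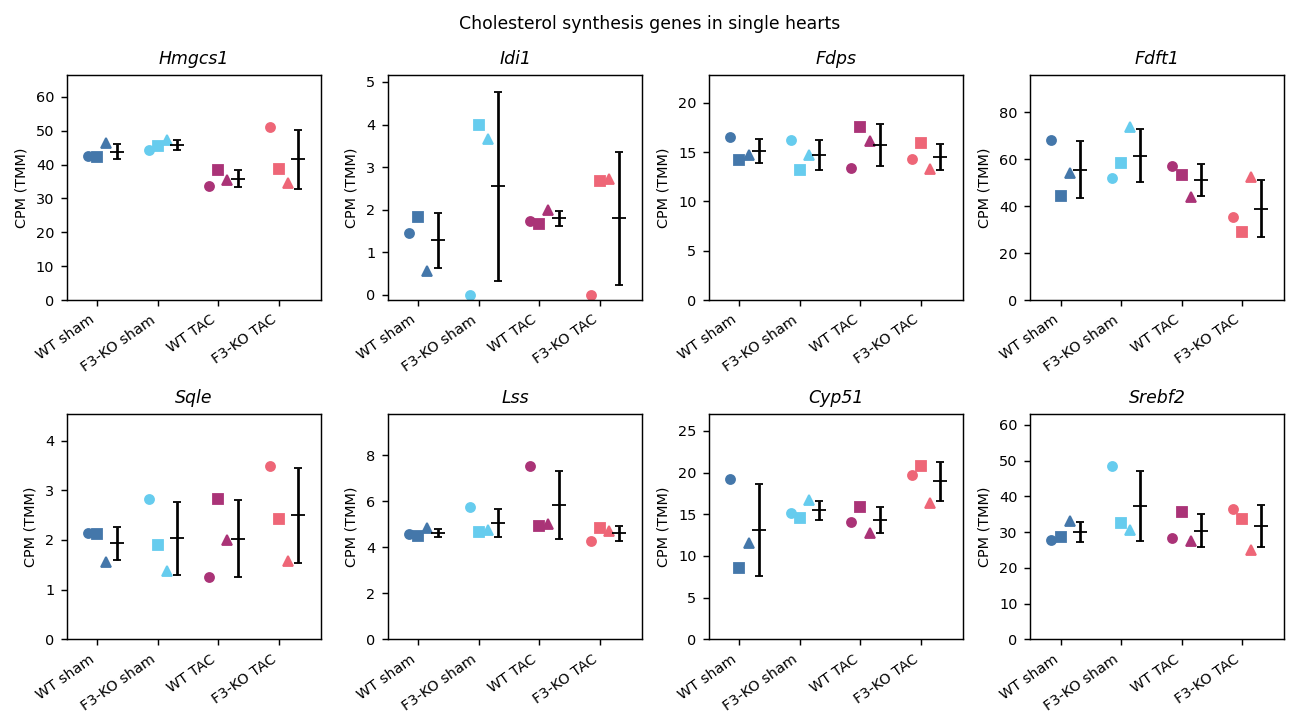
Level of each of the 8 genes in single hearts, in TMM-scaled CPM on a linear axis (circle, square and triangle are replicates 1, 2 and 3; the black mark and bar beside them are the group mean and SD, n = 3). *Idi1* is listed at 0 in 2 F3-KO hearts and *Fdft1* is lowest in F3-KO TAC hearts 1 and 2.

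*Hmgcs1* was one of the steadiest of the genes. It measured 42.6, 42.3 and 46.3 CPM in WT sham hearts and 44.4, 45.4 and 47.3 CPM in F3-KO sham hearts. After TAC it measured 33.7, 38.5 and 35.3 CPM in WT hearts and 51.2, 38.7 and 34.6 CPM in F3-KO hearts. All 3 WT TAC hearts thus lay below all 3 WT sham hearts, while F3-KO TAC heart 1 was the highest of the 12 and heart 3 was within the WT TAC range. Its biological coefficient of variation, which measures how far replicate hearts scatter once counting noise is set aside, was 0.132, and 16.7% of the genes tested had a lower one. *Fdps* was as steady, with a coefficient of 0.135. It ran from 13.2 to 17.6 CPM over all hearts, and its group means of 15.1 ± 1.21 (WT sham), 14.7 ± 1.49 (F3-KO sham), 15.7 ± 2.13 (WT TAC) and 14.5 ± 1.34 CPM (F3-KO TAC; SD, n = 3) overlapped throughout. Its counts were whole numbers in every heart.

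*Idi1* gave values that cannot be read as one level per group. It was listed at 0 in F3-KO sham heart 1 and F3-KO TAC heart 1. The other F3-KO hearts held 3.98 and 3.67 CPM after sham and 2.68 and 2.72 CPM after TAC. In WT hearts it measured 1.46, 1.83 and 0.573 CPM after sham and 1.73, 1.67 and 2 CPM after TAC. The 4 F3-KO hearts with a count were thus above all 6 WT hearts and the other 2 were at 0. The counts were fractional in the 10 hearts that had any and reached at most 45.61. *Idi2*, its near copy, was listed at 1.6 counts or fewer in every heart. Of 13391 genes with a median of at least 10 counts, 169 (1.26%) were likewise listed at 0 in at least 1 heart, and whether the 0 of *Idi1* is a true absence or a failed estimate was not tested. The gene is uncertain in every comparison.

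*Fdft1* measured 68.2, 44.2 and 54.1 CPM in WT sham hearts and 52, 58.2 and 73.9 CPM in F3-KO sham hearts. It measured 56.9, 53.1 and 43.7 CPM in WT TAC hearts and 35.4, 28.8 and 52.4 CPM in F3-KO TAC hearts. F3-KO TAC hearts 1 and 2 were the lowest of the 12, and heart 3 lay inside the range of the other groups. Hearts 1 and 2 were also those with the high fibroblast sums of 3830 and 6470 CPM and heart 3 the one with 1500. *Pdgfra* and *Dcn* of that list were not lowest in heart 3. The cardiomyocyte sums of hearts 1, 2 and 3 were 68000, 54700 and 56900 CPM, all below the 79600 to 88900 of F3-KO sham hearts. Of these markers *Tnnt2*, *Actc1*, *Ryr2* and *Tnnc1* overlapped between the groups. The part of the fibroblast and cardiomyocyte signals in the result was not tested. WT TAC heart 1, with a fibroblast sum of 3020, held the highest *Fdft1* level of its group. In the annotation *Fdft1* overlaps *Ctsb*, a cathepsin gene on the other strand, and its counts were not whole in any of the 12 hearts. *Ctsb* measured 480 to 601 CPM in sham hearts and 503 to 820 CPM in TAC hearts, and its difference between TAC and sham in F3-KO hearts was 0.23 ± 0.19 on the log2 scale (SE; adjusted p = 0.562, edgeR). Whether the counting used strand is not given in the sources used here, so reads from the overlap of *Fdft1* and *Ctsb* cannot be assigned with certainty.

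*Sqle* was counted at 15 to 46 per heart and ranged from 1.26 CPM in WT TAC heart 1 to 3.49 CPM in F3-KO TAC heart 1. Its group means were 1.93 ± 0.328 (WT sham), 2.04 ± 0.736 (F3-KO sham), 2.02 ± 0.782 (WT TAC) and 2.49 ± 0.964 CPM (F3-KO TAC; SD, n = 3), and every pair of groups overlapped. *Lss* measured 4.57, 4.49 and 4.83 CPM in WT sham hearts, 5.74, 4.67 and 4.76 CPM in F3-KO sham hearts, 7.53, 4.93 and 5 CPM in WT TAC hearts and 4.25, 4.85 and 4.7 CPM in F3-KO TAC hearts. WT TAC heart 1 stood above all others, and the remaining 11 hearts lay between 4.25 and 5.74 CPM. *Lss* overlaps an antisense RNA in the annotation and its counts were not whole in any heart.

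*Cyp51* measured 19.2, 8.52 and 11.5 CPM in WT sham hearts and 15.1, 14.6 and 16.7 CPM in F3-KO sham hearts. After TAC it measured 14.1, 15.9 and 12.8 CPM in WT hearts and 19.7, 20.8 and 16.3 CPM in F3-KO hearts. All F3-KO TAC hearts lay above all WT TAC hearts, but WT sham hearts 1 and 2 spanned nearly the whole range of the gene. *Cyp51* overlaps *Akap9*, an anchoring protein gene on the other strand, in the annotation, and its counts were not whole in any heart. *Akap9* measured 34.6 to 53 CPM and differed between F3-KO and WT hearts after TAC by 0.18 ± 0.17 on the log2 scale (SE; adjusted p = 0.707, edgeR).

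*Srebf2* measured 27.9, 28.7 and 33.2 CPM in WT sham hearts and 48.5, 32.4 and 30.7 CPM in F3-KO sham hearts. It measured 28.2, 35.6 and 27.4 CPM in WT TAC hearts and 36.4, 33.6 and 25.1 CPM in F3-KO TAC hearts. F3-KO sham heart 1 was the highest of the 12, and the 4 groups overlapped.

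**Figure D2:**
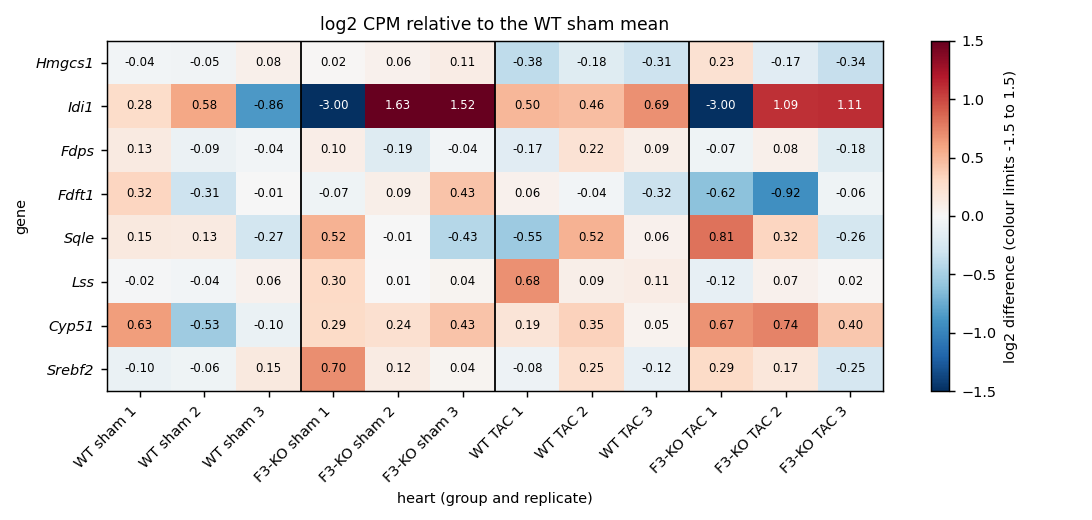
Each cell gives the log2 CPM of a gene (rows) in one heart (columns, by group and replicate) minus the mean of the 3 WT sham hearts; red is higher and blue lower, and colours saturate at 1.5 either way. No column is of one colour throughout; the *Idi1* entries of -3 are the hearts listed at 0.

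No heart was the highest or the lowest of its group for all 8 genes. WT TAC heart 2 was the highest of its group for 5 of the 8 genes, and WT sham heart 2 and F3-KO TAC heart 3 were each the lowest of theirs for 5. Over the 12 hearts, 13 of the 28 pairs of genes had a Pearson correlation above 0, with a median r of -0.02 and a range from -0.71 to 0.62. With group means removed, 14 of 28 were above 0 and the median r was 0.02. These are descriptions over 12 hearts that share the scaling of each library. The mean of the standardised log2 CPM of the 8 genes ran from -0.5 in WT sham heart 2 and F3-KO TAC heart 3 to 0.5 in F3-KO sham heart 1. Among 13410 other genes with a mean of at least 1 CPM, the 10 whose log2 CPM followed that mean most closely included *Ppm1j*, *Smtn*, *Cfap20*, *Cwf19l1*, *Camk1*, *Abhd13*, *Ing4*, *Smpd4* and *Ints14*, with r from 0.9 to 0.82 among the 10 over the 12 hearts. No other listed gene of sterol metabolism was among these 10. They are the top of 13410 correlations over 12 hearts and were not tested against chance. The mean also followed its own genes unevenly, with r from -0.32 for *Idi1* to 0.7 for *Srebf2*.

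F3-KO and WT hearts were compared after TAC to ask what the loss of *Fabp3* does under load. None of the 8 genes was called as differentially expressed. At an adjusted p under 0.05 (edgeR quasi-likelihood test, Benjamini-Hochberg over all genes) 0 of 8 were called, against 0.078% of all genes tested. At an unadjusted p of at most 0.05 also 0 of 8 were called, against 10% of all genes, and DESeq2 called 0 of 8 at its adjusted p, against 0.594% of the genes it adjusted. *Cyp51* was higher by 0.41 ± 0.24 on the log2 scale (SE, n = 3 against 3; adjusted p = 0.562, edgeR) and *Lss* lower, at -0.34 ± 0.22 (adjusted p = 0.588, edgeR). These were the 2 of 8 genes whose groups did not overlap, where 11.4% of all genes did not. Without WT TAC heart 1 the difference of *Lss* was -0.11. *Fdft1* differed by -0.4 ± 0.23 (adjusted p = 0.56, edgeR), and by -0.68 without F3-KO TAC heart 3. The others lay between -0.11 and 0.31. The median of the 8 was 0.03, beside 0.02 over all genes. For 6 of the 8 genes the 95% interval lay inside a 2-fold difference either way, for example -0.09 to 0.51 for *Hmgcs1* and -0.43 to 0.2 for *Fdps*. For *Sqle* (-0.6 to 1.21) and *Idi1* (-2.47 to 2.48) the intervals reached beyond a 2-fold difference.

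After sham surgery F3-KO and WT hearts were compared to see the effect of the deletion without load. Again 0 of 8 genes were called by edgeR, against 0.106% of all genes, and 0 of 8 at an unadjusted p of at most 0.05, against 6.02%. DESeq2 called 0 of 8, against 0.66%. The median difference was 0.14 on the log2 scale, beside 0 over all genes. Values above 0 numbered 7 of 8 here, 5 of 8 after TAC and 2 of 8 for TAC against sham in F3-KO hearts. After sham *Hmgcs1* was at 0.06 and *Sqle* at 0.08. *Srebf2* differed by 0.31 ± 0.2 (adjusted p = 0.998, edgeR), of which 0.08 remained without F3-KO sham heart 1. *Cyp51* differed by 0.24 ± 0.24 (adjusted p = 0.998, edgeR), and by 0.01 without WT sham heart 2 and 0.62 without WT sham heart 1. *Idi1* differed by 0.98 ± 1.15 (adjusted p = 0.998, edgeR) with the heart listed at 0 and by 1.57 without both F3-KO hearts listed at 0, a fit added after seeing the data (adjusted p = 0.575, edgeR). The groups overlapped for 8 of 8 genes, so 0 of 8 were apart, against 13.7% of all genes.

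TAC and sham hearts were compared within WT mice to give the response to load in normal hearts. edgeR called 0 of 8 genes, and 0% of all genes, at an adjusted p under 0.05. At an unadjusted p of at most 0.05 it called 0 of 8, against 6.28%, and DESeq2 called 0 of 8 at its adjusted p, against 0.164%. *Hmgcs1* was at -0.29 ± 0.14 on the log2 scale (95% interval -0.59 to 0.01; adjusted p = 0.782, edgeR), the value nearest to the threshold among the 8, and *Lss* at 0.33 ± 0.22 (adjusted p = 0.83, edgeR). These 2 of 8 did not overlap between groups, against 9.1% of all genes. Leaving out any one heart kept *Hmgcs1* between -0.34 and -0.25, while *Lss* was at 0.1 without WT TAC heart 1. The median of the 8 genes was 0.06, beside 0 over all genes.

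In F3-KO mice the comparison of TAC with sham hearts gave the response to load under the *Fabp3* deletion. edgeR again called 0 of 8 genes and 0% of all genes at an adjusted p under 0.05, and DESeq2 0 of 8 against 3%. At an unadjusted p of at most 0.05 edgeR called 1 of 8, which was lower after TAC, against 17.1% of all genes in either direction and 6.47% lower. That gene was *Fdft1*, with 61.4 ± 11.3 CPM after sham and 38.9 ± 12.2 CPM after TAC (SD, n = 3), a log2 difference of -0.66 ± 0.23 (95% interval -1.16 to -0.16; adjusted p = 0.2, edgeR; adjusted p = 0.101, DESeq2). The groups overlapped through F3-KO TAC heart 3 alone. Without that heart the difference was -0.94 and passed the threshold (adjusted p = 0.037, edgeR). Without F3-KO TAC heart 2 it was -0.49, and without hearts 2 and 3, the hearts with hepatocyte transcripts, -0.79 (adjusted p = 0.196, edgeR, with the lone heart assumed to vary like the other groups). *Cyp51* was at 0.29 ± 0.24 and *Sqle* at 0.29 ± 0.42 (adjusted p = 0.558 and 0.762, edgeR). *Sqle* was at -0.03 without F3-KO TAC heart 1 and 0.6 without F3-KO sham heart 1. 0 of 8 genes were free of overlap between the groups, where 22.9% of all genes were. The median was -0.14, beside 0.02 over all genes.

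**Figure D3:**
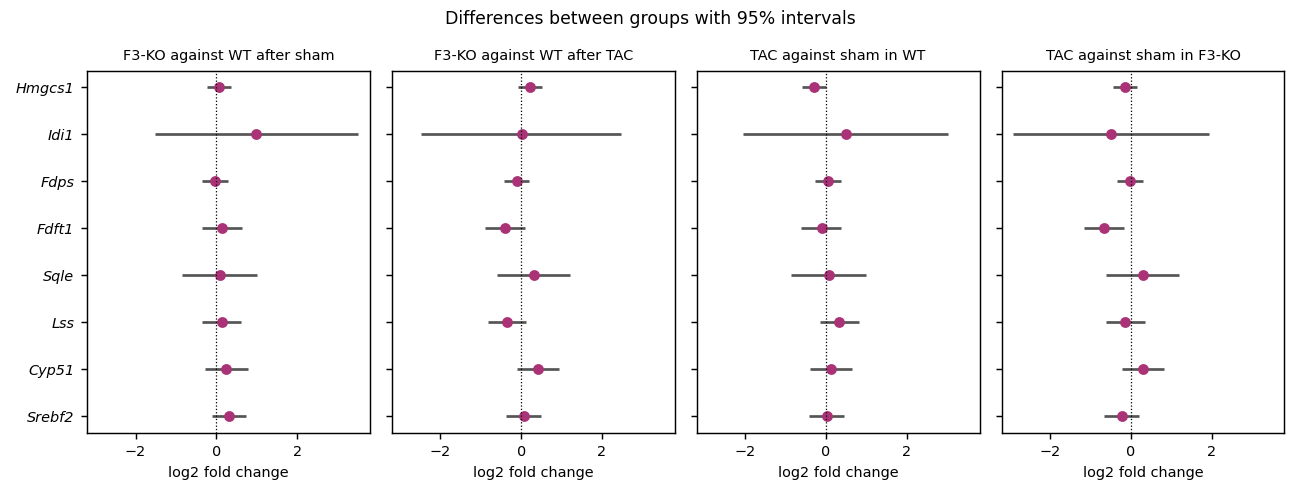
Log2 fold change of each gene in 4 comparisons, with its 95% interval from the edgeR quasi-likelihood fit (3 hearts against 3; dotted line at 0). The interval of *Fdft1* for TAC against sham in F3-KO hearts, -1.16 to -0.16, is the one that does not reach 0, and the intervals of *Idi1* are the widest.

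Averaged over both genotypes, 0 of 8 genes were called between TAC and sham by edgeR, against 0.078% of all genes, and 0 of 8 by DESeq2, against 4.06%. At an unadjusted p of at most 0.05 edgeR called 2 of 8, both lower after TAC, against 17.8% of all genes in either direction and 6.52% lower. They were *Fdft1* (-0.39 ± 0.16 on the log2 scale, adjusted p = 0.237, edgeR) and *Hmgcs1* (-0.21 ± 0.1, adjusted p = 0.279, edgeR). Averaged over both surgeries, 0 of 8 genes were called between F3-KO and WT by edgeR, against 0.412% of all genes, 0 of 8 at an unadjusted p of at most 0.05, against 10.1%, and 0 of 8 by DESeq2, against 1.4%. *Cyp51* was the nearest, at 0.33 ± 0.17 (95% interval -0.04 to 0.69; adjusted p = 0.541, edgeR). It was at 0.52 without WT sham heart 1 and 0.21 without WT sham heart 2. The comparisons share hearts and are not independent of one another.

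Whether the response to TAC differed between the genotypes was tested as the interaction of genotype and surgery. 0 of 8 genes and 0% of all genes passed an adjusted p under 0.05 with edgeR, 0 of 8 against 4.48% an unadjusted p of at most 0.05, and 0 of 8 against 0.0313% the adjusted p of DESeq2. For *Fdft1* the response in F3-KO hearts was lower than that in WT hearts by an interaction of -0.55 ± 0.32 on the log2 scale (95% interval -1.25 to 0.15; adjusted p = 0.954, edgeR). The *Fdft1* value past an unadjusted threshold in F3-KO hearts was thus not shown to differ from that in WT hearts, where it was -0.11 ± 0.23. For *Lss* the interaction was -0.47 ± 0.31 (adjusted p = 0.954, edgeR), and -0.24 without WT TAC heart 1.

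The remaining enzymes of the pathway gave the same count. Of 14 further enzymes of the mevalonate and sterol route 13 were tested, and 0 were called in any of the 7 comparisons by edgeR or DESeq2 at an adjusted p. At an unadjusted p of at most 0.05 edgeR passed 0 of 13 after TAC between genotypes, against 10% of all genes, and 1 of 13, upward, between TAC and sham over both genotypes, against 17.8%. Their median log2 difference was -0.01 between F3-KO and WT hearts after TAC and -0.03 between TAC and sham over both genotypes. *Mvk*, mevalonate kinase, had the lowest value after TAC, at -0.4 ± 0.2 (6.17 against 8.13 CPM; adjusted p = 0.528, edgeR). *Sc5d*, the sterol desaturase, was lowest in TAC against sham, at -0.22 ± 0.11 (adjusted p = 0.333, edgeR). Of 13 genes of sterol sensing and its regulation 0 were called by either tool in these comparisons, 1 and 2 passed an unadjusted p of at most 0.05 in edgeR, against 10% and 17.8% of all genes, and the medians were 0.02 and 0.06. *Erlin1*, which takes part in the sterol-driven breakdown of pathway proteins, was highest in both comparisons, at 0.44 ± 0.17 between F3-KO and WT after TAC (15.5 against 11.4 CPM; adjusted p = 0.473, edgeR). *Nr1h2*, the LXR-beta receptor of oxysterols, was lowest at -0.19 ± 0.11 (adjusted p = 0.557, edgeR), and *Srebf1*, the regulator of fatty acid synthesis, was lowest in TAC against sham at -0.32 ± 0.14 (adjusted p = 0.277, edgeR).

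**Figure D4:**
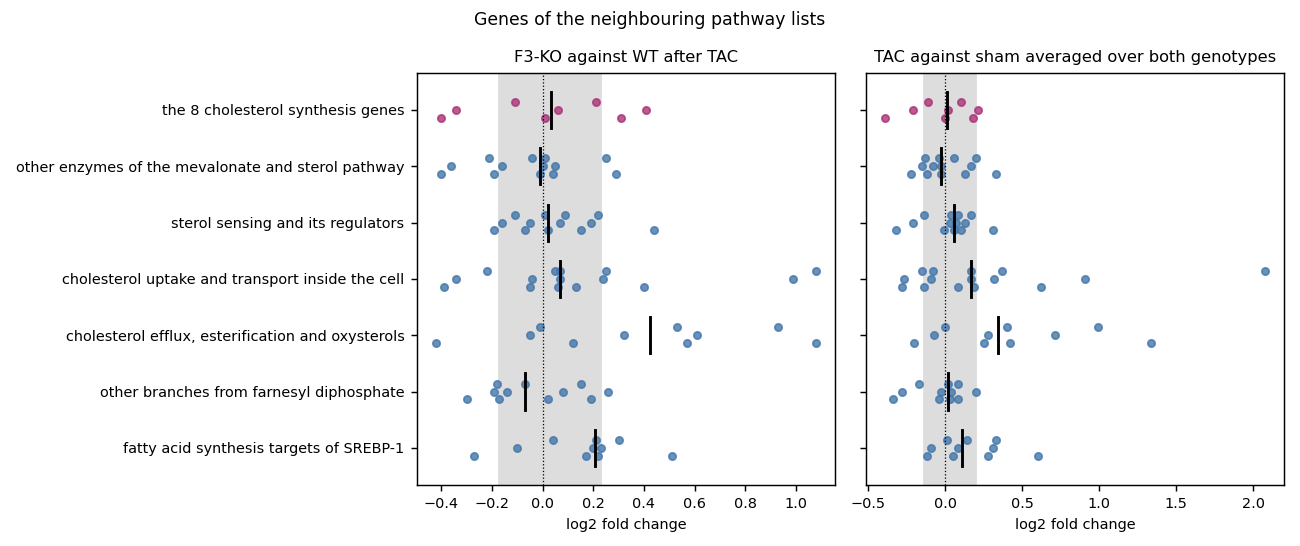
Log2 fold change of every tested gene of the 8 synthesis genes and 6 further lists (points; vertical bar is the list's median; vertical positions within a row only separate points), for F3-KO against WT after TAC and for TAC against sham over both genotypes. Grey bands span the middle 50% of all genes tested; the synthesis genes and the other pathway enzymes centre near 0, and the efflux list lies to the right.

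Of 16 listed genes of uptake and transport inside the cell 15 were tested, and edgeR called 0 in each comparison, with 5 of 15 past an unadjusted p of at most 0.05, all upward, for TAC against sham over both genotypes, against 17.8% of all genes in either direction, and 2 of 15 for F3-KO against WT after TAC, against 10%. The list medians were 0.17 and 0.07, inside the middle 50% of all genes. DESeq2 called 3 for TAC against sham over both genotypes, against 4.06% of all genes, and 2 in F3-KO hearts, against 3%. *Lrp8*, a lipoprotein receptor, measured 0.68, 0.642 and 2.37 CPM in WT sham and 5.1, 1.23 and 3.2 CPM in WT TAC hearts, and 0.998, 1.04 and 0.641 CPM in F3-KO sham and 5.69, 11.9 and 1.32 CPM in F3-KO TAC hearts. All F3-KO TAC hearts were above all F3-KO sham hearts, with heart 3 the closest to them. The difference over both genotypes was 2.08 ± 0.54 on the log2 scale (adjusted p = 0.108, edgeR; 0.0106, DESeq2). *Lrp1*, a large endocytic receptor, was at 0.62 ± 0.15 and *Npc2*, which carries cholesterol in the lysosome, at 0.37 ± 0.09 (adjusted p = 0.104 and 0.105, edgeR; 0.00594 and 0.0148, DESeq2). *Lrp8* was highest in F3-KO TAC hearts 2 and 1 and WT TAC heart 1, the hearts with the highest fibroblast sums (6470, 3830 and 3020 CPM). Their sums of the 5 proliferating cell markers were highest too, at 79.9, 221 and 94.7 CPM, against 2.42 to 19.7 in the other TAC hearts. The 7 macrophage markers summed to 347 to 698 CPM in TAC hearts and 190 to 396 in sham hearts. The part of these in the uptake genes was not tested. *Gramd1b*, a carrier of cholesterol between membranes, had the lowest value, -0.28 ± 0.16 (adjusted p = 0.386, edgeR). Between F3-KO and WT after TAC, its relative *Gramd1c* was highest at 1.08 ± 0.43 (2.34 against 1.1 CPM) and *Stard3*, a late endosomal sterol carrier, lowest at -0.39 ± 0.14 (adjusted p = 0.474 and 0.467, edgeR).

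Of the 10 genes of efflux, esterification and oxysterols edgeR called 0 in each comparison, while 5 of 10 passed an unadjusted p of at most 0.05 upward for TAC against sham in F3-KO hearts, against 10.6% of all genes, and DESeq2 called 1, against 3%. The 5 were *Abca1* and *Abcg1*, exporters of cholesterol, *Soat1*, which esterifies it, and *Ch25h* and *Cyp7b1*, enzymes of oxysterols, with log2 differences of 0.57, 0.91, 0.66, 2.3 and 1.47. The list median was 0.57 there, 0.16 in WT hearts and 0.43 between F3-KO and WT hearts after TAC, beside 0.02, 0 and 0.02 over all genes. Between F3-KO and WT after TAC 0 of 10 passed an unadjusted p of at most 0.05 in edgeR, against 10% of all genes. For the interaction of genotype and surgery 1 of 10 passed it, against 4.48%, and neither tool called any at an adjusted p. A difference between the genotypes in this response was thus not shown. *Ch25h* measured 0.499, 0.692 and 0.55 CPM in F3-KO sham and 4.48, 3.19 and 0.99 CPM in F3-KO TAC hearts (adjusted p = 0.175, edgeR; 0.028, DESeq2), which were all above the sham hearts. The 7 macrophage markers summed to 464 to 698 CPM in F3-KO TAC hearts and 280 to 341 in F3-KO sham hearts, while the hepatocyte sums were 0.989, 78.2 and 118 in F3-KO TAC hearts 1, 2 and 3. *Cyp7b1*, which the liver also expresses, measured 0.911, 2.11 and 2.31 CPM in these hearts, and 0.832, 0.692 and 0.367 CPM in F3-KO sham hearts. The part of the macrophage and hepatocyte signals in the list was not tested. For *Lipe* the value after TAC was the lowest of the list, -0.42 ± 0.28 between F3-KO and WT hearts, and for *Nceh1*, a hydrolase of cholesteryl esters, the lowest in TAC against sham, -0.2 ± 0.14 (adjusted p = 0.606 and 0.48, edgeR).

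Of 11 genes of the other branches from farnesyl diphosphate, which lead to ubiquinone, dolichol and prenylated proteins, 0 were called by either tool, and 0 and 2 passed an unadjusted p of at most 0.05 in edgeR for F3-KO against WT after TAC and TAC against sham over both genotypes, against 10% and 17.8% of all genes. *Coq2*, of ubiquinone synthesis, was lowest between F3-KO and WT after TAC at -0.3 ± 0.18 and *Nus1*, of dolichol synthesis, highest at 0.26 ± 0.13. For TAC against sham *Pdss2*, which builds the ubiquinone side chain, was lowest at -0.34 ± 0.13 and *Dhdds*, the partner of *Nus1*, highest at 0.2 ± 0.1. The list medians were -0.07 and 0.02. Of 10 fatty acid synthesis targets of SREBP-1 also 0 were called by either tool, and 1 and 2 passed an unadjusted p, against the same 10% and 17.8%, with medians of 0.21 and 0.11. *Fads2*, a fatty acid desaturase, was highest between F3-KO and WT after TAC at 0.51 ± 0.21 and *Acss2*, which makes acetyl-CoA from acetate, lowest at -0.27 ± 0.15. For TAC against sham *Scd1*, the stearoyl-CoA desaturase, was highest at 0.6 ± 0.24 and *Me1*, the malic enzyme, lowest at -0.12 ± 0.09. Adjusted p-values of these named genes ran from 0.201 upward in edgeR.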

How the data were processed

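Total RNA of 12 hearts was sequenced. According to the supplementary methods the authors filtered reads with SOAPnuke and mapped them with HISAT2 and STAR, which the submitters' processing notes give as 2.0.4 and 2.3.0, with mm8 and mm9 as builds of no stated role. The counting tool is not given in the sources used here. The authors deposited estimated counts per gene, not normalized, of which 40.6% were not whole, and these were rounded before testing because the tests had been planned for whole counts. The separate tables of 11 hearts equalled the joint table, and that of 1 heart was not used.

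Genes passing filterByExpr (minimum count 10, 14094 genes) were scaled by TMM (factors 0.931 to 1.09) and tested with edgeR 4.0.16 in 1 quasi-likelihood fit over the 4 groups, with 8 residual degrees of freedom before pooling across genes. Adjusted p-values are Benjamini-Hochberg over all genes tested. DESeq2 1.42.0 and limma 3.58.1 under R 4.3.3 were alternatives. Log2 CPM used a prior count of 2, and lengths came from the GENCODE annotation of GRCm38. A count of 3, the upper limit for a count of 0, was 0.191 to 0.3 CPM, for counting error only. The labels number the 3 samples of a group as replicates, and the authors' supplement calls them biological replicates. Hearts of one group differed beyond counting noise (chi-square per degree of freedom 9.84 to 79).

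The genes and lists were chosen with earlier results of these data known. The rule named the 8 genes, *Fabp3*, the 10 genes most like their mean, and for each list the highest and lowest gene in F3-KO against WT after TAC and in TAC against sham over both genotypes. *Lrp1*, *Npc2*, *Abca1*, *Abcg1*, *Soat1*, *Cyp7b1*, *Ctsb*, *Akap9*, *Idi2*, *Acta1*, *Nppb*, *Nppa*, *Myh7* and *Alb* were named after their values were seen. The single fibroblast and cardiomyocyte markers were also named then. 3 genes that the rule would name are not reported here. Marker sums are CPM of the library total. Scripts were tested on simulated data.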

Additional observations from a re-analysis of the deposited data

How the results depend on the processing

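Alternatives were a DESeq2 fit, its size factors in edgeR, limma-trend, no filter, a filter asking for 10 counts in each heart, only the libraries compared, an unadjusted p, a replicate block and leaving out each heart. Added after seeing the data were fits without the 2 F3-KO hearts where *Idi1* is listed at 0, without F3-KO TAC hearts 2 and 3, and without WT TAC heart 3 and F3-KO TAC heart 3, each the lowest of its own TAC group in fibroblast and proliferating cell markers. Of 151 counts of called genes 4 differed from the reported 0. The unadjusted p gave 1 for TAC against sham in F3-KO hearts and 2 over both genotypes. For TAC against sham in F3-KO hearts, leaving out single hearts gave 0 to 1 and leaving out heart 3 of both TAC groups gave 1, which was *Fdft1* (-0.97, adjusted p = 0.0288, edgeR); fewer hearts enter each such fit, and the cause was not tested. None of 144 medians moved by more than the 0.21 SD between hearts. All reported medians lay between -0.16 and 0.16, so this yardstick cannot show whether a median keeps its sign. Leaving out single hearts took that of F3-KO against WT after TAC from 0.03 to between -0.09 and 0.08. That of TAC against sham in WT hearts went from 0.06 to between -0.07 and 0.13. Of 1145 single differences, 2 had an adjusted p under 0.05, both of *Fdft1*, and 46 took the other sign, none of them with a p of at most 0.05 in either fit.

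Deviations of same-numbered hearts from their group means had r from -0.14 to 0.36 between groups, over 0.1 in 4 of 18 pairs. The highest, 0.36, was between WT TAC and F3-KO TAC replicate 3. The numbers were not taken to pair hearts in the main fit, and whether some hearts share a batch was not tested. With the replicate block the count of called genes stayed 0 in all 7 comparisons, with *Fdft1* in F3-KO TAC against sham at -0.68 (adjusted p = 0.186, edgeR). *Sqle*, *Lss* and *Idi1* had the fewest counts of the 8 genes, at most 46, 95.75 and 45.61 in any heart.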
